A study of Mus musculus with 18 samples.

Results

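The IL-6 family cytokine and Stat3 axis was followed here through 10 genes of the mouse aorta: the ligands Il6, Il11 and Lif, the receptor chains Il6ra, Il11ra1, Il6st, Lifr and Osmr, the transcription factor Stat3 and the feedback inhibitor Socs3. They were chosen by name from the pathway, and they are 10 of the 54281 genes in the deposited table. These members and the further gene lists were chosen with earlier results of these data known. A further 100 genes of the same pathway were listed by role, as other ligands, other receptors and receptor-cleaving proteases, kinases and adaptors, inhibitors, genes induced through Stat3, and the cytokines and NF-kB factors that act upstream of Il6. RNA had been sequenced from the descending aorta of 18 male C57BL/6 mice in 3 groups of 6. The HGPS group carried the LMNAG609G genotype, a knock-in model of Hutchinson-Gilford Progeria Syndrome that makes progerin, a truncated lamin A, from its own Lmna locus in all tissues and not in the artery alone. These mice were 64 to 75 days old (2 mo), the young wild-type (WT) mice were 62 to 95 days old (2-mo WT), and the aged WT mice were 609 to 762 days old (24-mo WT). The labels name no treatment for any group. The libraries held 12413229 to 30844775 counts each, and the deepest were in the HGPS group (17838351 to 30844775).

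Cytokines of this family share a signalling chain, gp130, which Il6st encodes. IL-6 and IL-11 first bind their own receptor chain (Il6ra or Il11ra1) and then gp130, whereas LIF and oncostatin M use gp130 paired with the LIF receptor or the oncostatin M receptor. Janus kinases bound to these chains phosphorylate STAT3, which moves to the nucleus and turns on acute phase, survival and immediate early genes together with Socs3, whose product blocks the kinases in turn. IL-6 can also act on cells without Il6ra when the receptor is shed by ADAM10 or ADAM17. In the vessel wall the family is known for its part in inflammation and in the response of smooth muscle cells and fibroblasts to injury.

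In the 2-mo WT aorta, Il11ra1 and Il6st were the most abundant of the 10 genes and the 3 ligands the least. Levels between genes are given as CPM (counts scaled for library size) divided by the exon length in kilobases. The mean ± SD over the 6 mice was 66.5 ± 3.94 CPM per kb for Il11ra1 and 55.4 ± 1.90 for Il6st, followed by Stat3 at 14.7 ± 1.22 and Lifr at 13.5 ± 1.39. Stat3 and Lifr overlapped in their ranges (13.6 to 16.6 and 12.2 to 16.2 CPM per kb), while Il11ra1 and Il6st did not overlap with each other or with these genes. Osmr (3.84 ± 0.408), Socs3 (2.499 ± 0.501) and Il6ra (0.719 ± 0.122) came next on the per kb scale. The ranges of Osmr (3.32 to 4.53 CPM per kb) and Socs3 (2.00 to 3.33 CPM per kb) met at their ends, and Il6ra lay apart below them. The ligands were lowest, with Lif at 0.395 ± 0.0830 CPM per kb, Il11 at 0.0635 ± 0.0430 and Il6 at 0.00945 ± 0.0232, and the ranges of Il11 and Il6 overlapped. Of the 10 genes, 8 reached 10 counts in at least 6 mice and entered the test across 15210 genes. Il6 and Il11 did not, and are described from their counts.

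**Figure D1:**
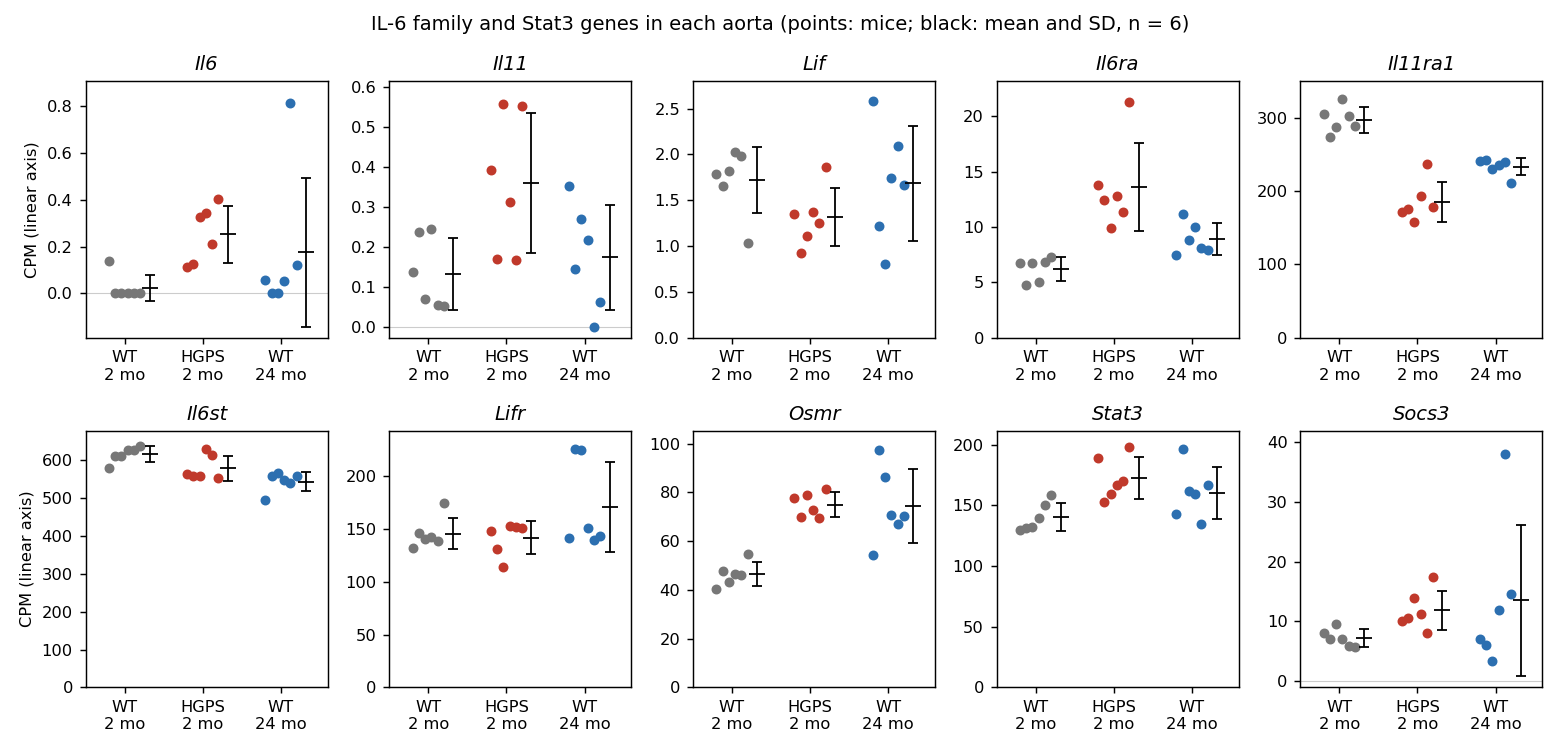
Each panel plots one gene as CPM (linear axis) in the 18 aortas, with 1 point per mouse, grey for 2-mo WT, red for 2-mo HGPS and blue for 24-mo WT, and black bars for the mean and SD of 6 mice. Il6ra and Osmr in HGPS mice lie above all 2-mo WT mice and Il11ra1 lies below them, while 1 mouse of the 24-mo WT group stands at 38.1 CPM of Socs3 and at 0.815 CPM of Il6.

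The first comparison asked how the pathway differed between HGPS mice and WT mice of the same age. Il6ra, Osmr and Stat3 rose in HGPS, and Il11ra1 fell. Among these called genes Il6ra had the largest rise, at 2.17-fold, followed by Osmr at 1.61-fold, and Il11ra1 fell to 0.624 of its 2-mo WT level. The other 4 tested genes (Il6st, Lif, Lifr and Socs3) did not pass the test. Genes were called by edgeR's quasi-likelihood test where the p adjusted over all 15210 genes (Benjamini-Hochberg) was below 0.05. The 4 calls among 8 tested members stand beside 43.2% of all genes called in this comparison, so their number is close to the background. At the study's stricter cut-offs (1.5-fold and an adjusted p under 0.001), Il6ra, Osmr and Il11ra1 remained, beside 9.50% of all genes. The study applied these cut-offs to another test, DESeq2, and reported far more genes than the 1445 called here by edgeR. At an adjusted p under 0.05, DESeq2 called 6685 genes here and edgeR 6567. What set the study's number apart was not tested. The ranges of the same 3 genes did not overlap between the groups, which held for 21.9% of all genes.

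Of the ligands, Il6 (chr5:30013114-30019981, GRCm38, plus strand) encodes interleukin-6 itself. Its counts were 2, 3, 7, 11, 5 and 8 in the 6 HGPS mice. In the 2-mo WT mice, 1 mouse had 3 counts and the other 5 had 0. Il6 was thus detected in 6 of 6 HGPS aortas and 1 of 6 young WT aortas, and the ranges overlapped through that 1 mouse. The summed counts, 36 against 3, gave a depth-scaled ratio of 8.92 (exact Poisson 95% interval 2.82 to 45.3, counting error only). The two-sided exact permutation test of mean CPM, without logs, gave p = 0.00649, where the smallest p that 6 against 6 mice allows is 0.00216. With every gene of at least 1 count admitted, 28882 genes in all, edgeR's quasi-likelihood test gave Il6 a log2 fold change of 2.94 (SE 0.997, adjusted p = 0.0364). All of this rests on no more than 11 counts in any HGPS mouse.

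Il11 (chr7:4772373-4782859, minus strand) encodes interleukin-11, a cytokine tied to fibroblast activation. Its counts ran from 4 to 12 in HGPS mice and from 1 to 4 in 2-mo WT mice, so that the groups met at 4 counts. The sums of 48 and 13 counts gave a depth-scaled ratio of 2.75 (exact Poisson 95% interval 1.46 to 5.52), and the exact permutation p was 0.0195. In the fit that admitted all genes with a count, Il11 did not pass (log2 fold change 1.43, SE 0.601, edgeR adjusted p = 0.10). Lif (chr11:4257557-4272514, plus strand), the leukemia inhibitory factor, stood at 1.31 ± 0.317 CPM in HGPS and 1.72 ± 0.361 CPM in 2-mo WT mice. Its log2 fold change of -0.38 (95% interval -0.92 to 0.15) did not pass the test (adjusted p = 0.233).

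Il6ra (chr3:89864059-89913196, minus strand) encodes the chain that gives cells their own response to IL-6. In HGPS mice it ran from 9.88 to 21.2 CPM with a median of 12.6, and in 2-mo WT mice from 4.74 to 7.28 CPM with a median of 6.70. Every HGPS mouse was above every young WT mouse, and HGPS mouse 6 stood well above the other 5, whose highest value was 13.8 CPM. The difference on the log2 scale was 1.12 (SE 0.16, edgeR adjusted p = 3.29e-05). Without HGPS mouse 6 it was 0.95. An antisense gene, Gm42809, shares 242 exon bases with Il6ra on the opposite strand, and it held 0 to 7 counts in any mouse.

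Osmr (chr15:6813577-6874969, minus strand) encodes the oncostatin M receptor chain. It ran from 69.3 to 81.5 CPM in HGPS mice, with a median of 75.2, and from 40.2 to 54.9 CPM in 2-mo WT mice, with a median of 46.3. The groups did not overlap. On the log2 scale the rise was 0.69 (SE 0.11, edgeR adjusted p = 5.87e-05), and each mouse left out in turn kept it between 0.65 and 0.74. Osm, which encodes the ligand, was below the count filter at 0.127 ± 0.114 CPM in HGPS and 0.203 ± 0.156 CPM in 2-mo WT mice.

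Il11ra1 (chr4:41699989-41769474, plus strand) encodes the receptor chain for IL-11 and went the opposite way. It ran from 158 to 237 CPM in HGPS mice (median 178) and from 274 to 325 CPM in 2-mo WT mice (median 296). All 6 HGPS mice were below all 6 young WT mice, with HGPS mouse 5 the highest of them. It fell by 0.68 on the log2 scale (SE 0.08, edgeR adjusted p = 2.85e-06), the smallest adjusted p among the members. Mouse has near-identical copies of this gene, Il11ra2 and Gm13305, between which reads can be split, and the copies took 0.821% to 2.15% of the reads of all 3 in each mouse. An exon of Il11ra1 also shares 8 bases with Ccl27a on the opposite strand, and the libraries kept strand.

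The chains that several receptors of the family share were not called. Il6st (chr13:112464070-112510086, plus strand), which encodes gp130, stood at 578 ± 33.0 CPM in HGPS and 615 ± 21.1 CPM in 2-mo WT mice. This was a log2 fold change of -0.088, with a 95% interval of -0.20 to 0.024. Lifr (chr15:7090614-7197489, plus strand), the LIF receptor, stood at 141 ± 15.6 and 145 ± 14.9 CPM. Its log2 fold change was -0.041 with a 95% interval of -0.31 to 0.23. Neither passed the test (edgeR adjusted p = 0.187 and 0.823).

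Stat3 (chr11:100885098-100939540, minus strand) ran from 153 to 198 CPM in HGPS mice, with a median of 169, and from 129 to 158 CPM in 2-mo WT mice, with a median of 136. The ranges overlapped, since 2-mo WT mouse 6 (158 CPM) lay above HGPS mouse 2 (153 CPM). The rise was 1.23-fold (log2 fold change 0.30, SE 0.09, edgeR adjusted p = 0.00859), below the study's 1.5-fold limit. RNA abundance says nothing of the phosphorylated protein. Stat3 shares 72 exon bases with Stat5a on the opposite strand, and Stat5a stood at 20.5 ± 2.93 CPM in HGPS and 22.3 ± 2.16 CPM in 2-mo WT mice.

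Socs3 (chr11:117966079-117970047, minus strand) is both a target of STAT3 and its inhibitor. It ran from 8.15 to 17.4 CPM in HGPS mice (median 10.8) and from 5.79 to 9.64 CPM in 2-mo WT mice (median 7.05). The ranges overlapped through HGPS mouse 5 (8.15 CPM) and 2-mo WT mouse 3 (9.64 CPM). The log2 fold change of 0.72 (SE 0.40) did not pass in the fit over all 3 groups (edgeR adjusted p = 0.158), in which 1 mouse of the 24-mo group adds to the spread. It passed with the 2 groups alone (0.71, adjusted p = 0.00496) and without 24-mo WT mouse 5 (0.71, adjusted p = 0.0372), and the exact permutation p was 0.00433.

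Since Socs3 is the textbook example of a STAT3-driven gene, its upstream sequence is shown with a match to the STAT motif in capitals. Whether STAT3 acts on Socs3 through this match was not tested. The motif searched was TTCNNNGAA, which reads the same on both strands, along with TTCNNGAA and TTCNNNNGAA, and the 3 motifs differ only in the number of bases between the arms. Promoter windows from RefSeq (GRCm38.p6) covered 250 bases before to 50 bases after each start, with 13 windows for the 10 genes. Across all 32851 windows the motifs were found in 8.30%, 8.52% and 6.95%, in the order given. Of the 10 genes, Socs3 alone held the 3-base spacing, 154 bases before the RefSeq start, at chr11:117969512-117969520. Il11 held the 4-base spacing in a match that began 5 bases before its start and ran past it. Il11ra1 held the 2-base spacing 188 bases before its start. The Socs3 sequence covers chr11:117969467-117969616 on the minus strand, which is intronic in the longest annotated transcript and upstream of the others, and the shorter lines show each match with its neighbouring bases.
Socs3: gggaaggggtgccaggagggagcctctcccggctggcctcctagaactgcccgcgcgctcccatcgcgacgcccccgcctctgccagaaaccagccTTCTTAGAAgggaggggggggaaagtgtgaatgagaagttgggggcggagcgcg
Il11: cagcaaggggTTCACAAGAAggggtgacct
Il11ra1: aacagaagatTTCTAGAAgagctacccc

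Several lists of cell type markers also differed between HGPS and 2-mo WT mice. Whether they followed the members from mouse to mouse was not tested. All 8 macrophage markers listed (Cd68, Adgre1, Csf1r, Mrc1, C1qa, C1qb, C1qc and Fcgr1) rose in HGPS, and their summed level was 592 to 898 CPM against 329 to 504 CPM in 2-mo WT mice, with none at 0. All 8 brown fat markers rose as well (460 to 1704 CPM against 108 to 601 CPM), as did 7 of 8 fat cell markers. Smooth muscle markers, the most abundant list in every mouse as fits a vessel wall, fell in 6 of 8 genes (20394 to 28471 CPM against 30920 to 39687 CPM). Fibroblast markers fell in 4 of 8 genes (5916 to 10021 CPM against 8659 to 11235 CPM). Of the other lists, 1 of 8 endothelium markers and 1 of 3 tested T cell markers were called. So were 2 of 4 tested skeletal muscle and 3 of 4 tested Schwann cell markers. No tested B cell, neutrophil or mesothelium marker was called. These counts stand beside 43.2% of all genes called in this comparison, and the fibroblast share of 50% is near that background. From whole-aorta RNA alone, fewer cells of a type, less RNA per cell and more RNA from other cells cannot be told apart. The paper counted smooth muscle nuclei in sections of young aortas and found their number similar in WT and HGPS mice. The part of macrophages in the Il6ra and Osmr values was not tested. When the scores of brown fat and skeletal muscle markers were entered as covariates, the same 4 members were called, beside 3307 of 15210 genes. The log2 fold changes were then 1.11 for Il6ra, 0.92 for Osmr, 0.39 for Stat3 (edgeR adjusted p = 0.0385) and -0.57 for Il11ra1.

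The second comparison asked how the pathway differed between 24-mo and 2-mo WT mice, which are the same young mice as before. Osmr rose with age by 1.60-fold, and Il11ra1 and Il6st fell. Il6ra came close to the threshold without passing it. The 3 calls among 8 members compare with 11.7% of all genes. At the study's cut-offs Osmr was past them, beside 2.00% of all genes. The ranges of Il6ra, Il6st and Il11ra1 did not overlap between the ages, as was true of 6.28% of all genes.

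Osmr ran from 54.4 to 97.4 CPM in 24-mo WT mice, with a median of 70.6, against 40.2 to 54.9 CPM in young mice. The ranges touched, because 24-mo mouse 1 (54.4 CPM) lay just under young mouse 6 (54.9 CPM). On the log2 scale this was a rise of 0.68 (SE 0.11, edgeR adjusted p = 0.000269). Il11ra1 ran from 211 to 243 CPM in 24-mo mice, below every young mouse. It fell by 0.35 on the log2 scale (SE 0.08, edgeR adjusted p = 0.00587). With the brown fat and skeletal muscle scores as covariates the estimate was -0.37 and no longer passed (adjusted p = 0.0544).

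Il6st, at 494 to 566 CPM in 24-mo mice and 578 to 638 CPM in young mice, was lower in all 6 aged mice. The difference was small, a log2 fold change of -0.18 (SE 0.05, edgeR adjusted p = 0.0308). The call was lost without any of 6 single mice (young mice 3, 4, 5 and 6, aged mice 1 and 5), with adjusted p up to 0.0648, while the estimate stayed between -0.19 and -0.15. Il6ra, at 7.44 to 11.2 CPM, was above every young mouse. Its log2 fold change was 0.51 (SE 0.17, edgeR adjusted p = 0.0528), and with DESeq2 the adjusted p was 0.0298. Stat3 (160 ± 21.3 CPM), Lifr (171 ± 42.3 CPM) and Lif (1.68 ± 0.624 CPM) were not called. Lifr was high in 24-mo mice 2 and 3 (226 and 225 CPM) and between 140 and 150 CPM in the other 4.

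Socs3 and Il6 in the aged group were set by 1 animal. Socs3 was 38.1 CPM in 24-mo mouse 5, and the other 5 aged mice ran from 3.40 to 14.7 CPM. Against young mice its log2 fold change was 0.92 (SE 0.40, edgeR adjusted p = 0.156) and dropped to 0.26 without mouse 5. The same animal held 16 of the 20 Il6 counts of its group, where 1, 0, 0, 1 and 2 counts were found in the other 5. The ratio of Il6 to young mice was 6.64 (exact Poisson 95% interval 1.97 to 34.9) with an exact permutation p of 0.273. It also had the highest levels among the aged mice of Fos (517 CPM), Zfp36 (108 CPM) and Il1b (3.67 CPM), all of them genes that respond within minutes to hours of stimulation. These genes were picked after their values were seen, and another such gene, Egr1, was higher in 24-mo mouse 4 (99.4 CPM) than in mouse 5 (80.4 CPM). What set this animal apart was not tested. Il11 was at 0 to 6 counts in aged mice, and its ratio to young mice was 1.38 (exact Poisson 95% interval 0.639 to 3.06).

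**Figure D2:**
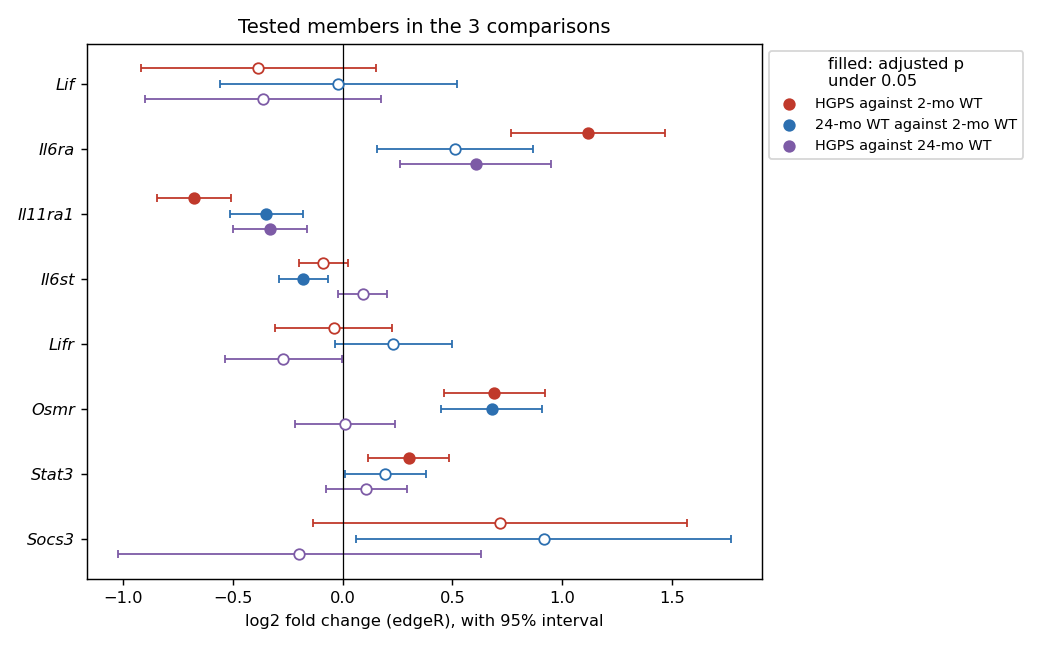
Log2 fold changes (horizontal axis) of the 8 tested genes with 95% intervals, for HGPS against 2-mo WT (red), 24-mo WT against 2-mo WT (blue) and HGPS against 24-mo WT (purple), with filled points for an adjusted p under 0.05. Osmr lies at 0.69 and 0.68 in the first 2 comparisons and at 0.012 in the third, Il11ra1 lies below 0 in all 3, and the Socs3 intervals are the widest.

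The third comparison set HGPS mice against 24-mo WT mice directly. It is also the difference between the first 2 comparisons, which share their young WT mice. Il6ra was higher in HGPS, Il11ra1 was lower, and the other 6 tested genes did not pass. The 2 calls among 8 members stand beside 47.3% of all genes, and whether these shares differ was not tested. None of the 8 was past the study's cut-offs, which 12.1% of all genes were, and none had ranges that did not overlap, against 22.2% of all genes. At an unadjusted p under 0.05 the members numbered 3, and DESeq2 called 2.

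Il6ra was 13.6 ± 3.99 CPM in HGPS and 8.92 ± 1.42 CPM in 24-mo WT mice, a log2 fold change of 0.61 (SE 0.16, edgeR adjusted p = 0.00454) that was 0.43 without HGPS mouse 6. Il11ra1 was 186 ± 27.5 and 233 ± 11.98 CPM, a log2 fold change of -0.33 (SE 0.08, edgeR adjusted p = 0.0019). By group means, Il6ra was thus lowest in young WT and highest in HGPS mice, and Il11ra1 was in the reverse order. Both calls were lost with the brown fat and skeletal muscle scores as covariates (0.60, adjusted p = 0.136, and -0.20, adjusted p = 0.257).

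Osmr had close means in the 2 groups, 75.0 ± 5.04 CPM in HGPS and 74.4 ± 15.2 CPM in 24-mo WT mice. Their log2 difference was 0.012 with a 95% interval of -0.22 to 0.24. The aged mice spread more widely than the HGPS mice around that common mean. For Il6 the sums of 36 and 20 counts gave a ratio of 1.34 (exact Poisson 95% interval 0.757 to 2.45). Without aged mouse 5 it was 5.45 (1.95 to 21.1; exact permutation p = 0.0108). Socs3 likewise changed sign, from a log2 fold change of -0.20 to 0.45 without that mouse, and was not called either way.

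The 100 other genes of the pathway place these members in context, and 91 of them were tested. Of these, 43 were called between HGPS and 2-mo WT mice (31 higher and 12 lower). This is 47.3% of those tested, near the background of 43.2%. Whether the lists differ from each other was not tested.

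**Figure D3:**
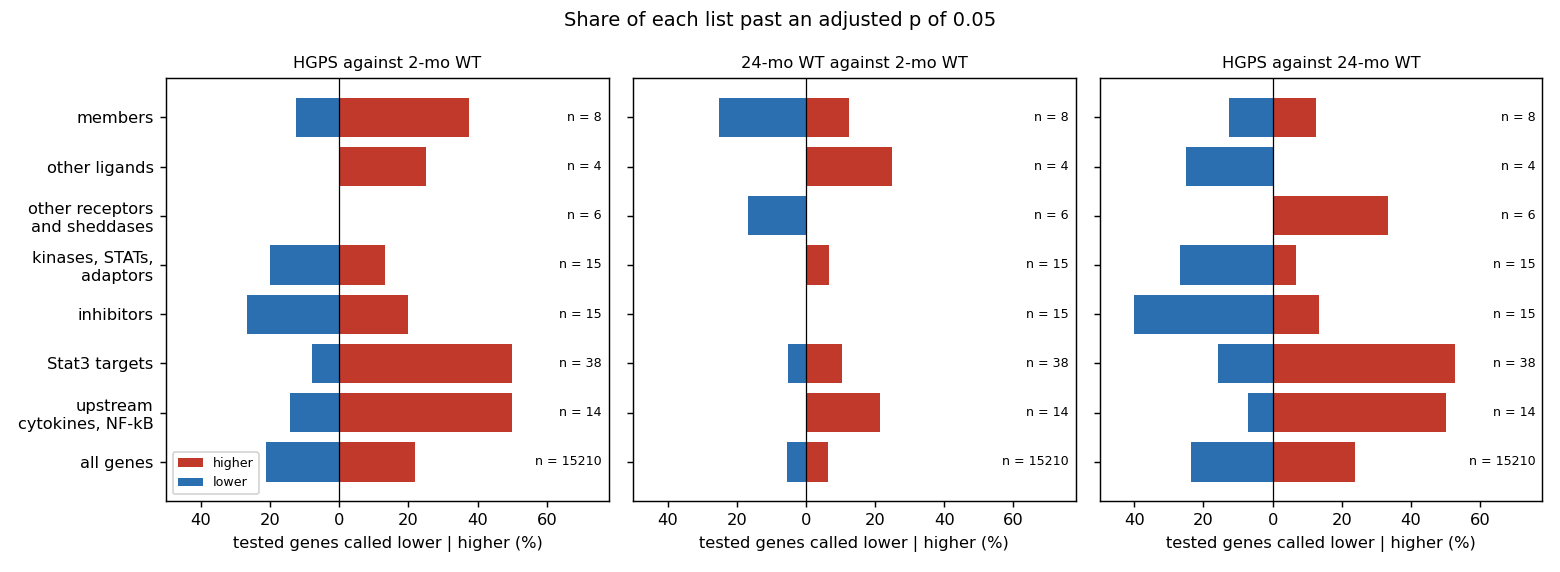
Share of the tested genes of each list (percent, horizontal axis) called higher (red, to the right) or lower (blue, to the left) at an adjusted p under 0.05, in one panel per comparison, with the number tested at the right and all genes in the bottom row. In HGPS against 2-mo WT, 19 of 38 Stat3 target genes were higher and 3 lower. Of all genes 43.2% were called, split almost evenly between higher and lower. The 38 include Batf, Lcn2 and Birc5, which passed the count filter only with the HGPS mice. Whether the lists differ was not tested.

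Among 38 tested genes of the Stat3 target list, 19 rose and 3 fell in HGPS against 2-mo WT mice, beside 43.2% of all genes called. Their median log2 fold change was 0.57, and that of all genes was 0.0026. The list was chosen with earlier results of these data known. At the study's cut-offs 9 were higher and 1 lower, beside 9.50% of all genes, and the ranges of 13 did not overlap, beside 21.9% of all genes. Batf, one of the 38, reached 10 counts in HGPS mice alone, so that it entered the test through the group where it was high. Lcn2 and Birc5 reached 10 counts in all 6 HGPS mice. They did so in 2 24-mo WT mice each, and in 1 and 2 of the 2-mo WT mice. Both thus passed the filter only with the HGPS mice. Any call of Batf, Lcn2 or Birc5 is no support for a rise of the list. The counts and median above include these genes. The largest rises were of Ccl2, a monocyte chemoattractant, and of the acute phase genes Lcn2, Hp and Lrg1. With HGPS mouse 6 left out, 19 rose and 2 fell, Egr1 no longer passing, beside 6087 of 15210 genes called.

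Hp, which encodes the hemoglobin-binding protein haptoglobin, ran from 239 to 1673 CPM in HGPS mice, with a median of 379, and from 44.1 to 155 CPM in 2-mo WT mice. Every HGPS mouse was above every WT mouse, and HGPS mouse 6 held the highest value by far. This was a rise of 2.63 on the log2 scale (SE 0.47, edgeR adjusted p = 0.000216), and 1.91 without that mouse. Among the HGPS mice, the same animal was highest in Lrg1 (48.4 CPM), Lcn2 (9.56 CPM), Saa3 (4.88 CPM) and Serpina3n (204 CPM), and in the members Il6ra, Osmr, Stat3, Socs3, Il6 and Lif. Its summed macrophage (898 CPM), fat cell (2191 CPM) and fibroblast (10021 CPM) markers were also the highest of its group. Its smooth muscle sum was the lowest (20394 CPM), and its brown fat sum (930 CPM) was not the highest. The part of cell makeup in these values was not tested.

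Ccl2 rose by 2.80 on the log2 scale (SE 0.41, adjusted p = 3.37e-05), from 0.393 ± 0.247 to 2.86 ± 1.45 CPM. Lcn2, an iron-sequestering protein of the innate response, rose by 2.76 (SE 0.67, adjusted p = 0.00269), and by 1.95 without HGPS mouse 6. Lrg1 rose by 2.17 (SE 0.50, adjusted p = 0.00175), and by 1.49 without it. The groups were not separated equally: Ccl2 ranges did not overlap, while those of Lcn2 and Lrg1 did.

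Some further genes of the list were named after their values were seen. Timp1, an inhibitor of matrix metalloproteinases, had the smallest adjusted p of the list. It ran from 34.9 to 73.0 CPM in HGPS mice and from 15.4 to 17.1 CPM in 2-mo WT mice (log2 fold change 1.68, SE 0.17, adjusted p = 5.4e-07). Serpina3n, a protease inhibitor, rose by 1.52 (SE 0.26, adjusted p = 0.000134), and Pim1, a survival kinase, by 0.98 (SE 0.19, adjusted p = 0.000458). The 3 genes that fell were Fgl2, a prothrombinase and immune regulator (log2 fold change -0.66, SE 0.09, adjusted p = 1.28e-05), the early response factor Egr1 (-0.80, SE 0.30, adjusted p = 0.0366) and the kinase Pim2 (-0.62, SE 0.18, adjusted p = 0.00878). Bcl6, a repressor whose promoter windows held the 3-base motif at 4 places, rose by 0.83 (SE 0.15, adjusted p = 0.000211). Fgl2, which fell, also held the 3-base motif, 36 bases before its start, and so did the windows of Icam1, Irf1 and Steap4. Whether the motif goes with the direction of change was not tested. The 4 Bcl6 matches, on the minus strand of chromosome 16, are shown in order of their coordinates from high to low.
Bcl6 at chr16:23988962-23988970: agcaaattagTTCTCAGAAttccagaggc
Bcl6 at chr16:23981443-23981451: aggccgcggcTTCCTGGAAagttacttct
Bcl6 at chr16:23981397-23981405: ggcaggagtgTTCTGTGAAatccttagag
Bcl6 at chr16:23981363-23981371: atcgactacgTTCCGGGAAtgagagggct

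Over the list, 30 of 40 genes had a promoter window and 5 of them (16.7%) held the 3-base motif, against 9.55% of all 27025 genes with a window. A match is a description of these letters and no evidence of binding.

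**Figure D4:**
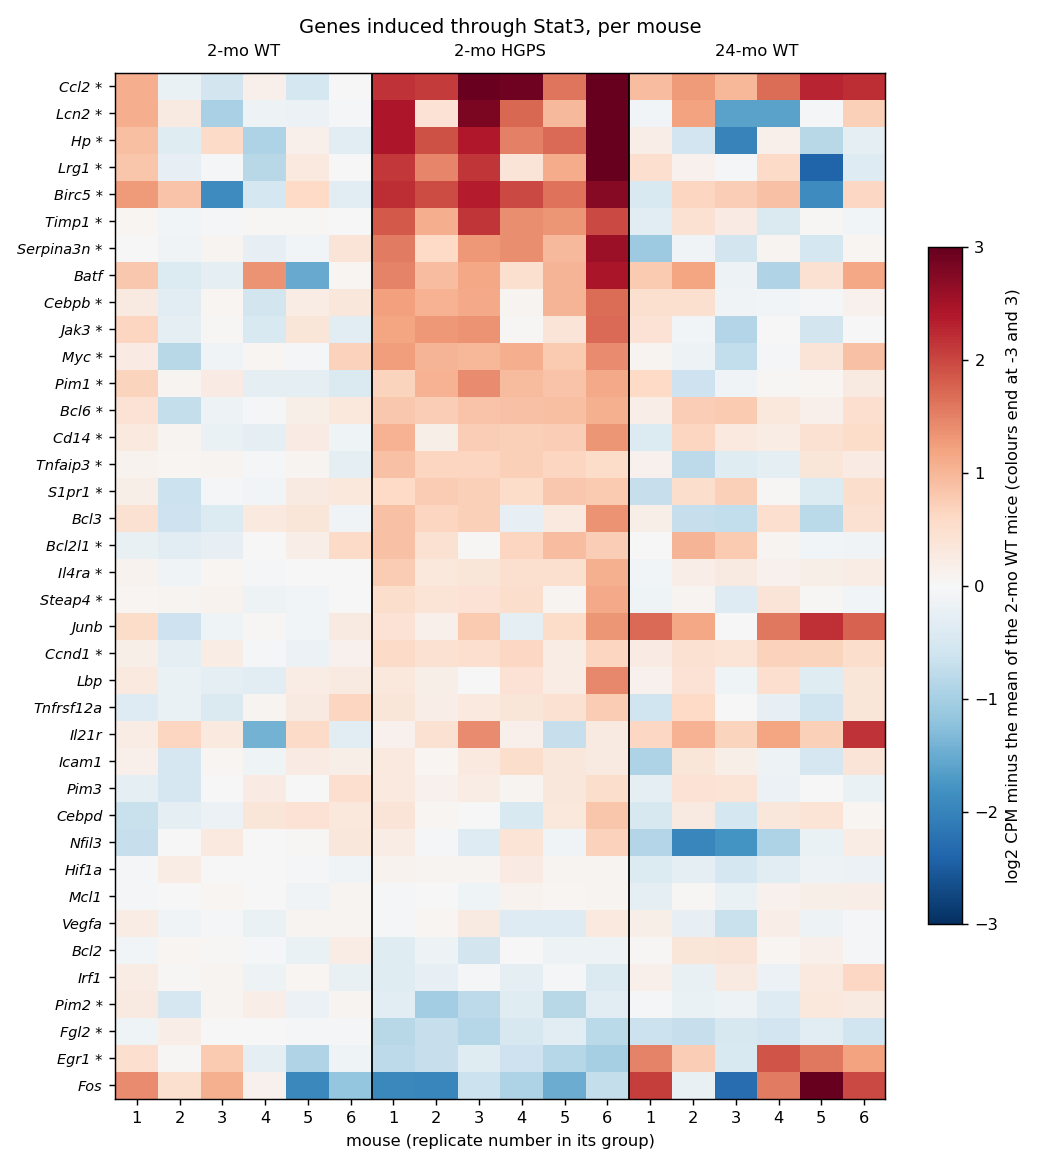
Log2 CPM of the 38 tested genes of the Stat3 target list in each mouse (columns, by group), set against the average of the young WT mice, with red for higher and blue for lower values, colours ending at -3 and 3, and stars for the genes called between HGPS and 2-mo WT. Acute phase genes at the top are high in HGPS mice, most so in mouse 6, while Junb, Egr1 and Fos are high in most 24-mo WT mice.

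The brown fat and macrophage markers were also higher in HGPS than in 2-mo WT mice, as given above. With scores of the brown fat and skeletal muscle genes as covariates, 10 genes of the list were called higher and 1 lower, a fall that also took the calls over all genes from 6567 to 3307. Timp1 (1.73), Ccl2 (2.68), Serpina3n (1.54) and Fgl2 (-0.50) were still called. Hp (1.36, edgeR adjusted p = 0.129), Lcn2 (2.03, adjusted p = 0.18), Lrg1 (0.67, adjusted p = 0.519) and Pim1 (0.43, adjusted p = 0.175) were not. The part of macrophages in these values was not tested.

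Upstream of Il6, 9 of 14 tested genes were called in HGPS against 2-mo WT mice, with 7 higher and 2 lower, beside 43.2% of all genes, and their median log2 fold change was 0.38. Il1rn, the antagonist of the interleukin-1 receptor, stood at 0.0926 ± 0.101 CPM in 2-mo WT and 0.837 ± 0.395 CPM in HGPS mice (log2 fold change 2.94, SE 0.58, adjusted p = 0.000486). It reached 10 counts in the 6 HGPS mice and in no WT mouse, where it had at most 6. Il1rn thus entered the test through the group where it was high, and its call is no support for a rise of the list. The counts and median of the list include it. Tnfrsf1b, a receptor for TNF, rose by 0.79 (SE 0.11, adjusted p = 2.61e-05). The 2 that fell were the NF-kB subunits Nfkb1 (-0.23) and Rela (-0.28), whereas Nfkb2 rose by 0.55. Il1b was not called (log2 fold change 1.38, adjusted p = 0.217), and Tnf and Il1a were below the count filter.

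Negative regulators were called in 7 of 15 genes, with 3 higher and 4 lower, near the background of 43.2%. Ptpn6, a phosphatase found mostly in blood cells, rose by 0.91 (SE 0.19, adjusted p = 0.000752) from 4.60 ± 1.51 to 8.70 ± 1.35 CPM. Ptpn1 (0.33) and Pias2 (0.19) also rose. Those that fell were Pias1 (-0.55), Pias3 (-0.30), Socs5 (-0.27) and Socs6 (-0.27). The PIAS proteins restrain STATs in the nucleus, and the SOCS proteins act at the receptor.

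Of 15 kinases, STATs and adaptors, 2 rose and 3 fell, beside 43.2% of all genes called. Jak3, a kinase of lymphoid and myeloid cells that is also on the Stat3 target list, rose by 1.06 (SE 0.28, adjusted p = 0.00546), but by 0.0089 with the brown fat and skeletal muscle scores as covariates (adjusted p = 0.988). Jak1, the kinase most used by gp130, rose by 0.14. Stat5b (-0.41), Stat6 (-0.23) and Gab1 (-0.33) fell. Among other ligands, 4 of 9 were tested and Ebi3, a subunit of interleukin-27, rose by 1.22 (SE 0.32, adjusted p = 0.00488), at no more than 0.856 CPM in any HGPS mouse. Ebi3 reached 10 counts in 6 HGPS mice, 3 24-mo WT mice and no 2-mo WT mouse, so it passed the filter only with the group where it was high. Cntf, a neural member of the family, was below the count filter, at 0.851 ± 0.263 CPM in HGPS and 0.106 ± 0.178 CPM in 2-mo WT mice, and its groups did not overlap. None of 6 other receptors and proteases was called by edgeR or DESeq2, and 1 had an unadjusted p under 0.05.

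With age, 12 of 91 pathway genes were called in WT mice, 9 higher and 3 lower, which is 13.2% beside 11.7% of all genes. Of the Stat3 target list, 4 genes rose and 2 fell with age, and the median log2 fold change over its 38 tested genes was 0.025. Ccl2 rose by 1.73 (SE 0.43, adjusted p = 0.011), the early response genes Junb by 1.5 (SE 0.30, adjusted p = 0.00207) and Egr1 by 1.14 (SE 0.29, adjusted p = 0.0144), and the cell cycle gene Ccnd1 by 0.50. Fgl2 fell by 0.55 and Hif1a, an oxygen-sensing factor, by 0.32 on the log2 scale. The acute phase genes did not pass the test with age, with a log2 fold change of -0.52 for Hp (adjusted p = 0.519) and -0.13 for Lcn2 (adjusted p = 0.942). With the brown fat and skeletal muscle scores as covariates, 1 gene of the list was called with age, Fgl2. That fit called 808 of 15210 genes.

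Upstream of Il6, Il1b, Il17ra and Tnfrsf1b rose with age. The interleukin-1 beta gene Il1b did so by 2.85 on the log2 scale (SE 0.83, adjusted p = 0.03), a call that was lost without 24-mo mouse 5 (2.19, adjusted p = 0.0957). The interleukin-17 receptor chain Il17ra rose by 0.58 (SE 0.11, adjusted p = 0.00101), from 9.14 ± 1.03 to 13.6 ± 1.35 CPM. Adam17, the protease that sheds Il6ra, fell by 0.42 (SE 0.07, adjusted p = 0.000214), from 71.2 ± 6.72 to 53.2 ± 3.03 CPM, while in HGPS mice it stood at 68.5 ± 4.56 CPM. None of the 15 negative regulators was called with age by edgeR or DESeq2, and 4 had an unadjusted p under 0.05.

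Between HGPS and 24-mo WT mice, 49 of 91 pathway genes were called (31 higher and 18 lower), which is 53.8% beside 47.3% of all genes. On the Stat3 target list 20 of 38 were higher in HGPS and 6 lower. The acute phase genes were the furthest above the aged level, with log2 fold changes of 3.15 for Hp (SE 0.48, adjusted p = 3.18e-05), 2.89 for Lcn2 and 2.31 for Lrg1. Of these, Lcn2 passed the count filter only with the HGPS mice. So did Batf and Birc5, and the 38 genes counted above include all of them. Early response genes were the furthest below the aged level. Fos was at 24.6 ± 9.57 CPM in HGPS and 200 ± 180 CPM in 24-mo WT mice (log2 fold change -3.02, SE 0.66, adjusted p = 0.00101). The aged mice ranged from 11.4 to 517 CPM, so the Fos ranges overlapped. Egr1 was lower by 1.94 (SE 0.30, adjusted p = 3.53e-05) and the mRNA-destabilizing Zfp36 by 0.81 (SE 0.18, adjusted p = 0.00112). Tlr4, a receptor for bacterial products, was higher by 0.68 (SE 0.12, adjusted p = 0.000141), Nfkbia, the NF-kB inhibitor, by 0.78 (SE 0.25, adjusted p = 0.0137) and Il1rn, which passed the count filter through HGPS mice alone, by 2.45 (SE 0.55, adjusted p = 0.00121). Jak3 (1.26) and Ptpn6 (0.63) were higher as well. With the brown fat and skeletal muscle scores as covariates, 7 genes of the Stat3 target list were called higher and 4 lower. That fit called 3154 of 15210 genes.

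The genes whose levels ran most like each member were sought over the 18 mice by Pearson r of log2 CPM, among the 10707 other genes whose mean count was 100 or more (10708 for Lif). These are descriptions across points that share group differences, cell makeup and library depth. For Il6ra they were Ucp2 (r = 0.91), the interleukin-4 receptor gene Il4ra (r = 0.91) and the complement gene C3 (r = 0.91), and Ucp2 was also among the closest to Stat3 (r = 0.89), after Lfng (r = 0.90) and Ifi207 (r = 0.89). For Osmr they were the growth factor gene Pgf (r = 0.95), Maff (r = 0.93) and Abcf2 (r = 0.90). For Il11ra1 they were Fam198a (r = 0.96), Prickle1 (r = 0.96) and the hyaluronidase gene Hyal1 (r = 0.95), the closest likeness of any member. Il6st ran with Calcrl (r = 0.92), Tmem39a (r = 0.90) and Zfp9 (r = 0.88), and Lifr with Limd1 (r = 0.93), Ccdc71l (r = 0.92) and Ralb (r = 0.91). For Lif the closest were Ccnl2 (r = 0.83), Col27a1 (r = 0.80) and Accs (r = 0.80), and for Socs3 the integrin gene Itga6 (r = 0.80), Rdh10 (r = 0.78) and the stress response gene Ppp1r15a (r = 0.76). No member was among the 3 genes most like another member.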

How the data were processed

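RNA of descending aortas was made into stranded, ribosome-depleted libraries and sequenced as pairs. The authors matched reads to GENCODE M23 transcripts (GRCm38.p6) with salmon and summed them per gene with tximport. Their processing notes also list Bowtie 0.12.2. The deposited values are estimated counts per gene, stored as whole numbers and not normalized. The 18 samples were grouped by their labels. The 15210 genes that reached 10 counts in 6 mice or more were fitted over all 3 groups in edgeR 4.0.16 (R 4.3.3) with TMM factors and glmQLFTest, with Benjamini-Hochberg adjustment over all of them. CPM used the TMM-scaled library sizes. Log2 CPM for likeness and for the two-sided exact permutation test of Socs3 used a prior count of 2. The permutation tests of Il6 and Il11, which were below the filter, compared mean CPM without logs. The fits and calls were tested on simulated data. No 2 libraries of a group agreed within sampling noise (chi-square divided by its degrees of freedom, 8.07 to 95.0 in 45 pairs). The labels call the samples replicates, and each is taken as 1 mouse from its own age and title. Totals of 12413229 to 30844775 counts set the precision of genes near 1 CPM. The Poisson intervals of Il6 and Il11 ratios cover counting error only, and intervals of log2 fold changes come from the edgeR fit and include the spread between mice. The members and gene lists were chosen with earlier results of these data known. Genes named were all members, up to 4 called genes of at least 1.5-fold per list and comparison, the 3 genes most like each member, overlapping genes and copies, and the markers listed, and other genes were named after their values were seen. Names and positions came from GENCODE M21 (same assembly) and promoter windows from RefSeq. Alternatives were DESeq2 1.42.0, other scalings and filters, a replicate block, marker scores as covariates and each mouse left out. Protein sequences were not analysed here. One item is not reported here.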

Additional observations from a re-analysis of the deposited data

Results flagged for a closer look

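In each of the 3 groups, the 10 members were searched for a mouse set apart from the other 5 by Dixon's criterion, 30 groups in all, of which chance alone gives about 1 in 20. Of the ligands, Il6 was 0.138 CPM in 2-mo WT mouse 1 and 0 in the other 5, where any value above 0 meets the criterion, so that the rate of 1 in 20 does not apply and the value rests on 3 counts. Il6 was 0.815 CPM in 24-mo WT mouse 5, where the next highest was 0.123 CPM. Lif was 1.03 CPM in 2-mo WT mouse 6, with the next lowest at 1.66 CPM. Lifr was 174 CPM in the same mouse, with the next highest at 146 CPM, and this mouse was the oldest of its group at 95 days. Il6ra was 21.2 CPM in HGPS mouse 6, with the next highest at 13.8 CPM. Socs3 was 38.1 CPM in 24-mo WT mouse 5, with the next highest at 14.7 CPM.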

How the results depend on the processing

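DESeq2, RLE or upper quartile factors, library totals alone, both other count filters and fits of the 2 groups alone left each count of called members or pathway genes within 1.5 times its first value. With brown fat and skeletal muscle scores as covariates, the pathway genes called were 21 (HGPS against 2-mo WT), 3 (24-mo against 2-mo WT) and 20 (HGPS against 24-mo WT), and the members called were 1 in the second comparison and 0 in the third, where 2 had an unadjusted p under 0.05. The calls over all genes also fell in that fit, to 3307, 808 and 3154. At 1.5-fold and an adjusted p under 0.001, the pathway genes called were 13, 1 and 9 in the same order, and the members were 1 and 0 in the last 2 comparisons. In the fit with covariates the estimates for HGPS against 2-mo WT turned to 0.033 for Il6st and 0.25 for Lifr, neither called. The cause was not tested.

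The replicate numbers were not taken to pair the mice: same-numbered mice deviated together with r of -0.025 to 0.17 (HGPS and 2-mo WT), -0.16 to 0.082 (24-mo and 2-mo WT) and -0.099 to 0.066 (HGPS and 24-mo WT), and 2, 1 and 1 of the 6 pairs matched best with their own number. With the replicate block the members called were 4, 3 and 2 and the pathway genes 42, 11 and 50, while Socs3 between HGPS and 24-mo WT mice turned to 0.041, not called.

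With each mouse left out in turn, the members called were 4 to 5, 2 to 4 and 2 to 3, and the pathway genes 40 to 47, 10 to 14 and 44 to 51. Estimates that crossed 0, none of them called, were Lifr (-0.071 to 0.015) for HGPS against 2-mo WT, Lif (-0.18 to 0.12) for 24-mo against 2-mo WT, and Osmr (-0.069 to 0.098) and Socs3 (-0.40 to 0.45) for HGPS against 24-mo WT. With Il11ra1 summed with its copies, an alternative chosen after seeing the data, its calls kept their direction. Depth limits Il6 and Il11, which no filter of 10 counts admits, and it leaves Lif at 15 to 44 counts per mouse.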
